A study of Mus musculus with 38 samples.

Results

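The peptide hormone and granule genes Ins2, Iapp, Pyy, Trh, Gal, Cartpt, Nppa and Chga were followed through the reprogramming of mouse fibroblasts. They are 8 of 35976 genes in the expression table of the time courses, 8 of 37108 in the table of factor sets and 8 of 20695 in the single-cell table. They were picked out by name because their levels in these same libraries were high in some conditions of a fibroblast culture, a cell type not known as a source of these hormones. Their levels and differences are therefore a description, and no test was made on them.

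Mouse embryonic fibroblasts (MEFs) from E13.5 embryos carrying an Oct4-GFP transgene were infected with retroviruses that drive transcription factors from a viral promoter, and the infected groups were then kept in iCD3, a serum-free reprogramming medium that contained LIF, bFGF, the GSK3 inhibitor CHIR99021, a DOT1L inhibitor, an LSD1 inhibitor and a ROCK inhibitor. JGES stands for Jdp2, Glis1, Esrrb and Sall4, a set that leads part of the cells to pluripotency, and BMP4 at 10 ng/ml was added or left out. Bulk RNA-seq, given as FPKM (fragments scaled to transcript length and library total), covered JGES at day 0 and at days 1, 3, 5 and 7 without and with BMP4 (9 libraries), SALL4 WT alone and SALL4 delN12 alone at days 1, 5, 9 and 11 without BMP4 (8 libraries), and the factor sets JGE, JGEO and JGESO, where O is Oct4, at day 7 without and with BMP4 (6 libraries). SALL4 delN12 lacks the 12 residues at the N terminus through which SALL4 binds the NuRD repressor complex. Single-cell RNA-seq gave 1 sample of JGES cells with BMP4 and 1 without, both at day 7, and ATAC-seq (9 samples) and CUT&Tag (4 samples) gave peak lists for SALL4-infected cells and MEFs. Every RNA-seq condition had 1 library and every chromatin condition 1 peak list, the CUT&Tag lists from merged replicates, so no difference here has a replicate check.

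Peptide hormones are made as longer precursors that enter the secretory pathway, are cut by proprotein convertases and trimmed and amidated by further enzymes, and in endocrine cells and neurons wait in dense-core granules for a signal to be released. Ins2 and Iapp are the insulin and amylin precursors of pancreatic beta cells, Pyy encodes peptide YY of gut endocrine cells, Trh and Cartpt are best known from the hypothalamus, Gal from neurons, Nppa from heart atria and Chga from the granules themselves. Fibroblasts secrete constitutively and are not known for any of these peptides. BMP4 is a TGF-beta family ligand that acts through SMAD proteins.

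In bulk RNA a lower level can mean fewer cells that make the transcript or less transcript per cell, and these cannot be told apart. The cell populations differed between the conditions compared. With BMP4 at JGES day 7, 6 of 6 fibroblast markers were higher by at least 1 on the log2(FPKM+1) scale (median difference 3.07) and 6 of 6 pluripotency markers were lower by as much (median -4.25), whereas the 6 neuroendocrine markers had a median difference of 0.02, with 0 higher and 1 lower. Fibroblast markers were already higher at day 3 (4 of 6, median 1.65) and day 5 (6 of 6, median 2.99). The JGES libraries were also the shallower ones: the FPKM a low gene takes in them, times its length in kilobases, was 0.349 at the median against 0.0599 in the other libraries, a ratio of 5.83. The part of cell composition and of depth in the results for the hormone genes was not tested.

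The gene models of Gencode vM21 (mm10), which the study names for the single-cell counts, place Iapp at chr6:142298423-142303961 on the plus strand, Trh at chr6:92242061-92244650 on the minus strand, Pyy at chr11:102106676-102107832 (minus), Gal at chr19:3409915-3414544 (minus), Cartpt at chr13:99898489-99901091 (minus), Nppa at chr4:148000722-148002079 (plus) and Chga at chr12:102554969-102565028 (plus). Ins2 spans chr7:142678656-142743381 on the minus strand with 9 transcripts, whereas the RefSeq gene ends at 142679726, and which models the bulk FPKM used is not given in the sources used here, so the Ins2 FPKM may or may not hold reads of the longer models. Its transcript shares 86.4% of aligned positions (414 of 479) with Ins1, the other mouse insulin gene, and reads that fit both are uncertain. Ins1 never went above 8.04 FPKM in any bulk library.

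Among 7 of the 8 genes matched to RefSeq promoters (build GRCm38.p6), Cartpt and Chga had accessible chromatin at the start site and a cAMP response element core, TGACGTNA, in the 250 bases upstream. The promoters are printed 5′ to 3′ on the gene's strand, chr13:99900684-99900933 (minus) for Cartpt and chr12:102554691-102554940 (plus) for Chga, with that match in capitals.
Cartpt: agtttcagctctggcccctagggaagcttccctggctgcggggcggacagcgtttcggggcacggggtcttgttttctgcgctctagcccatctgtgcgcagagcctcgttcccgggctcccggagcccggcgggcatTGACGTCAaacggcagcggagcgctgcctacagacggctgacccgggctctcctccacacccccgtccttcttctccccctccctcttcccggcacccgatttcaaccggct
Chga: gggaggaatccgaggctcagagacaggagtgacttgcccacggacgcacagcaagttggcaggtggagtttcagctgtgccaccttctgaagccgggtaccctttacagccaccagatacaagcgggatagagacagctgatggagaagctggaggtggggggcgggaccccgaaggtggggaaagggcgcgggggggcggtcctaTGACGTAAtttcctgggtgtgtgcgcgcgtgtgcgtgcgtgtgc
The match starts at position -112 from the start site in Cartpt and at -44 in Chga. The start site used for the Cartpt promoter is not that of the Gencode model given above, and the printed Cartpt bases lie inside that model. A match to TGACGTNA on either strand occurs in 3.08% of 17492 promoters of the same length. Neither promoter held the other motifs searched on both strands, which were the TATA box TATAAA, the AP-1 motif TGANTCA, the orphan receptor half-site AAGGTCA, the AT-rich motif AATATT that SALL4 can bind and the GATA motif AGATAA, and no matched motif overlapped another.

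For Iapp and Trh the peak lists hold no peak near the start site but hold SALL4 CUT&Tag peaks a few kilobases away, and the 200 bases at the centre of each are printed on the plus strand. The site upstream of Iapp lies at chr6:142289625-142289824 and the site downstream of Trh at chr6:92240080-92240279. Capitals mark TGACTCA, a match to the AP-1 motif TGANTCA, and TTTATA, which is TATAAA on the other strand.
Iapp upstream site: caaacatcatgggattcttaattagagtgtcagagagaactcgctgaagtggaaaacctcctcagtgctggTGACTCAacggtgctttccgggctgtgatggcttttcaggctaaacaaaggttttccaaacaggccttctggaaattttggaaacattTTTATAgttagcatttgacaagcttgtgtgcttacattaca
Trh downstream site: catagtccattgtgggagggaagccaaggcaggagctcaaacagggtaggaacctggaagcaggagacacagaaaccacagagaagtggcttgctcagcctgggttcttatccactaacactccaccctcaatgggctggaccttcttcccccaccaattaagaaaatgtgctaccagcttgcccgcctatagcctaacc
A TGANTCA match occurs in 27.4% and a TATAAA match in 13.1% of 67289 windows of this length centred on SALL4 delN12 peaks. None of the 6 motifs occurs in the Trh window.

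Insulin transcripts were the most abundant of the group. In the JGES time course Ins2 stood at 42.6 FPKM on day 0 and, without BMP4, at 148 on day 1, 269.8 on day 3, 104 on day 5 and 38.6 on day 7. With BMP4 it stood at 171, 736, 1457 and 1211 FPKM on the same days. The curves thus lay close together on day 1 and apart from day 3 on, with the BMP4 libraries above every library without BMP4 (the plot of the JGES time course). The difference on the log2(FPKM+1) scale was 0.21 on day 1, 1.44 on day 3, 3.80 on day 5 and 4.94 on day 7, the last a 31.4-fold higher FPKM with BMP4. On day 5 with BMP4, Ins2 was within the top 0.187% of genes with at least 1 FPKM in that library. Igf2, the next gene along chromosome 7 and a growth factor of embryonic cells, was at 107 to 2187 FPKM over the 17 time-course libraries and 4.21-fold higher with BMP4 at JGES day 7.

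**Figure D1:**
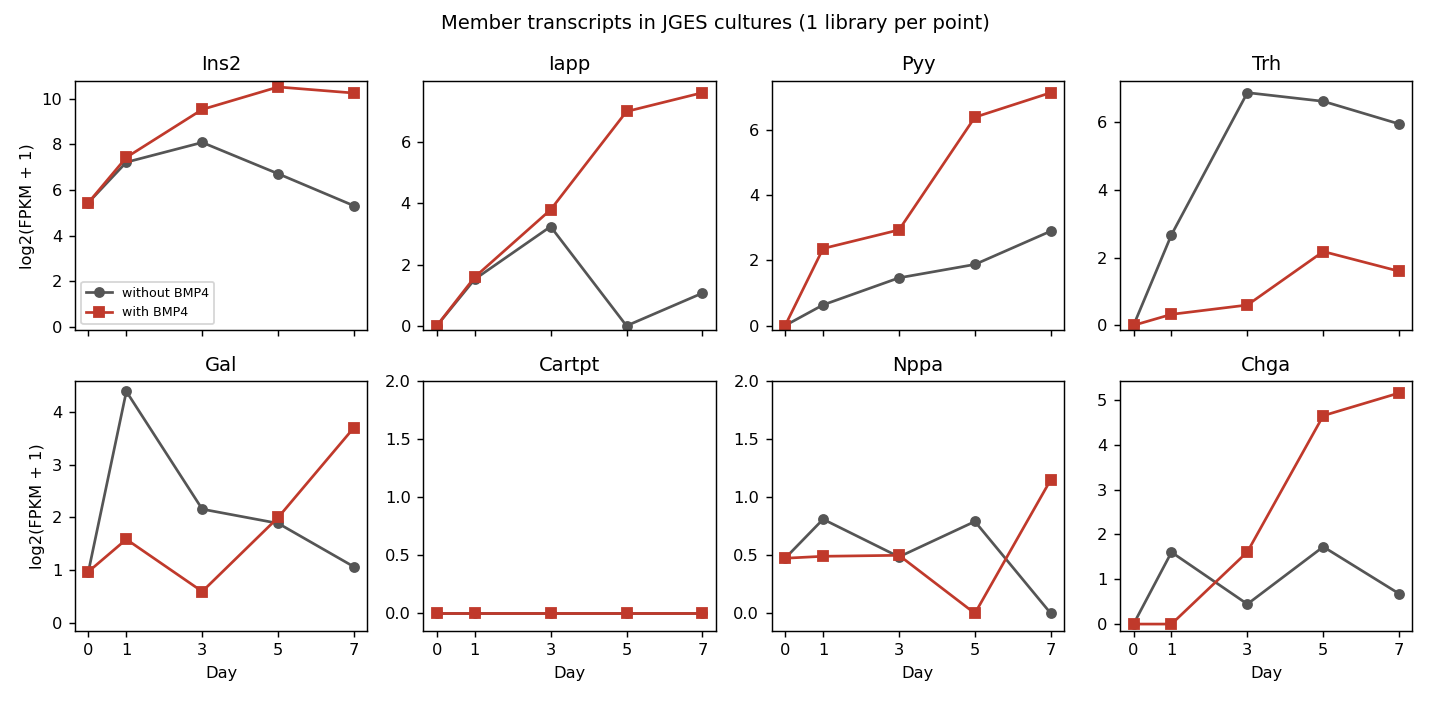
Level of each gene as log2(FPKM+1) on the vertical axis against day of JGES reprogramming on the horizontal axis, 1 library per point, without BMP4 in grey and with BMP4 at 10 ng/ml in red. Ins2, Iapp, Pyy and Chga lie higher with BMP4 on days 5 and 7, Trh lies lower with BMP4 from day 1 on, Cartpt is listed at 0 throughout, and Nppa stays below 2 FPKM.

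Iapp, whose peptide is stored and released with insulin in beta cells, was listed at 0 on day 0. Without BMP4 it reached 1.87 FPKM on day 1, 8.44 on day 3, was listed at 0 on day 5 and stood at 1.09 on day 7. With BMP4 it stood at 2.01, 12.8, 127 and 194 FPKM. Levels were similar with and without BMP4 up to day 3 and separated on day 5, with log2(FPKM+1) differences of 0.07, 0.55, 6.99 and 6.54 on days 1, 3, 5 and 7, and at day 7 the FPKM was 177-fold higher with BMP4.

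Pyy, which encodes a peptide that slows gut motility and appetite, was listed at 0 on day 0 and stood at 0.552, 1.76, 2.68 and 6.48 FPKM on days 1, 3, 5 and 7 without BMP4. With BMP4 its values were 4.16, 6.68, 83.8 and 142 FPKM. Every BMP4 library was above its partner of the same day, by 7.54-fold already on day 1 and by 31.3-fold and 21.9-fold on days 5 and 7. Ppy, the pancreatic polypeptide gene that neighbours Pyy, did not go above 9.50 FPKM and was 5.99-fold higher with BMP4 on day 7.

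Chga encodes chromogranin A, an acidic protein of the granule core and the precursor of several short peptides. It was listed at 0 on day 0, stood at 2.04, 0.362, 2.31 and 0.598 FPKM on days 1, 3, 5 and 7 without BMP4, and was listed at 0 and then stood at 2.06, 24.1 and 34.7 FPKM with BMP4. Its order thus turned between day 1, when the library without BMP4 was higher, and the later days, when the BMP4 library was higher by 10.5-fold (day 5) and 58.0-fold (day 7).

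Gal encodes galanin, a neuropeptide that dampens transmitter and hormone release. It stood at 0.961 FPKM on day 0, at 19.98, 3.46, 2.7 and 1.09 FPKM on days 1, 3, 5 and 7 without BMP4, and at 2.00, 0.511, 2.999 and 12.05 FPKM with BMP4. The order turned here too: the library without BMP4 was higher on days 1 and 3 (log2 differences -2.81 and -1.56), the values were close on day 5 (0.11), and the BMP4 library was higher on day 7 (2.64, or 11.1-fold).

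Trh, the precursor of thyrotropin-releasing hormone, ran the other way. It was listed at 0 on day 0, stood at 5.398, 116, 97.4 and 60.8 FPKM without BMP4, and at 0.253, 0.516, 3.53 and 2.03 FPKM with BMP4. The library with BMP4 was the lower one on all 4 days, with differences of -2.35, -6.28, -4.44 and -4.35 on the log2(FPKM+1) scale and a 29.999-fold lower FPKM on day 7. Of the 8 genes it was the only one lower by at least 1 on days 5 and 7.

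Nppa, the atrial natriuretic peptide gene of the heart, stayed at or below 1.22 FPKM in all 9 JGES libraries, and its day 7 difference of 1.15 was between a value listed at 0 and 1.22 FPKM. Cartpt, which encodes the cocaine- and amphetamine-regulated transcript peptide, was listed at 0 in all 9. These genes therefore give no bulk difference in JGES cells that stands above the lowest values of the table.

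Counted over the group, 1 gene was higher and 3 were lower by at least 1 on the log2(FPKM+1) scale with BMP4 on JGES day 1, where 3.75% and 5.72% of 13582 genes with at least 1 FPKM in either library were higher and lower by as much. On day 3 the counts were 3 higher and 2 lower, against 6.81% and 8.99% of 14426 genes, and on day 5 they were 4 and 1, against 8.78% and 13.2% of 14928. On day 7, 6 were higher and 1 was lower, against 10.3% and 13.8% of 15347. The median difference of the 8 genes was -0.16, 0.28, 1.52 and 3.45 on the 4 days, beside -0.02, -0.09, -0.18 and -0.14 over all genes. Of the 8, 6 had at least 1 FPKM in either library on days 1, 3 and 5, and 7 on day 7. Since the genes were chosen with these differences known, nothing is read from the comparison with all genes.

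Which reprogramming factors were present went with different hormone genes at day 7. Without Sall4, in JGE cells, Ins2 stood at 65.8 FPKM without BMP4 and 1049.8 with it, a 16.0-fold higher level, and Iapp at 15.1 and 47.9 FPKM, 3.17-fold higher. In JGE cells Cartpt was at 0.0720 and 3.60 FPKM, and Pyy was listed at 0 and stood at 0.952. The counts were 3 higher (Ins2, Iapp, Cartpt) and 0 lower, against 4.28% and 4.78% of 14714 genes. With a pseudocount of 0.1 in place of 1 the higher count was 6. Those shares of all genes are for a pseudocount of 1 and are no background for the count of 6. The JGE library without BMP4 had more Iapp than the JGES library without BMP4 of the same day, which stood at 1.09 FPKM. The JGES library was also the shallower one, so factor set and depth cannot be told apart in this comparison.

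In JGEO cells, where Oct4 takes the place of Sall4, Ins2 stood at 40.6 and 102 FPKM without and with BMP4, 2.52-fold higher, and Iapp at 0.446 and 1.78. Trh was high in both JGEO libraries, at 85.2 FPKM without and 124 with BMP4. The count was 1 higher (Ins2) and 0 lower, against 2.26% and 1.95% of 14749 genes. It was 2 higher and 2 lower with a pseudocount of 0.1, for which the shares of all genes are not given here.

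In JGESO cells, with all 5 factors, Ins2 stood at 28.5 and 209 FPKM (7.33-fold higher with BMP4), Pyy at 0.602 and 8.11 (13.5-fold), Chga at 0.371 and 2.03 (5.49-fold) and Trh at 41.9 and 16.4, a log2(FPKM+1) difference of -1.30. Iapp stayed at 0.145 and 0.196 FPKM, so it was near the bottom of the table in both JGESO libraries although Ins2 differed. The counts were 3 higher (Ins2, Pyy, Chga) and 1 lower (Trh), against 5.29% and 3.52% of 13521 genes. Ins2 was higher with BMP4 in JGES, JGE, JGEO and JGESO alike, with differences of 4.94, 3.98, 1.31 and 2.83, whereas Trh was lower by at least 1 in JGES and JGESO and 0.54 higher in JGEO. In JGE cells Trh was listed at 0 without BMP4 and stood at 0.202 FPKM with it, so a lower level could not have been seen there. Whether these differences differ between factor sets could not be tested with 1 library each. The median difference of the fibroblast markers was 3.07 in JGES, -0.73 in JGE, -0.22 in JGEO and 0.87 in JGESO, and the part of fibroblast content in the Ins2 differences was not tested.

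SALL4 alone also gave hormone transcripts, and SALL4 WT and SALL4 delN12 differed in which ones. In SALL4 WT cells Ins2 was listed at 0 on day 1 and stood at 10.3, 44.0 and 79.9 FPKM on days 5, 9 and 11, higher at each later day, whereas in delN12 cells it stood at 0.387, 2.15, 0.351 and 0.580. Chga stood at 3.53, 9.65, 9.64 and 18.7 FPKM in WT cells and was listed at 0 and then at 2.25, 0.697 and 1.48 in delN12 cells. For both genes the WT library was above every delN12 library from day 5 on (the plot of the SALL4 time courses). The delN12 minus WT differences on the log2(FPKM+1) scale were -1.84, -5.06 and -5.68 for Ins2 on days 5, 9 and 11, and -2.18, -1.71, -2.65 and -2.99 for Chga on days 1, 5, 9 and 11.

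**Figure D2:**
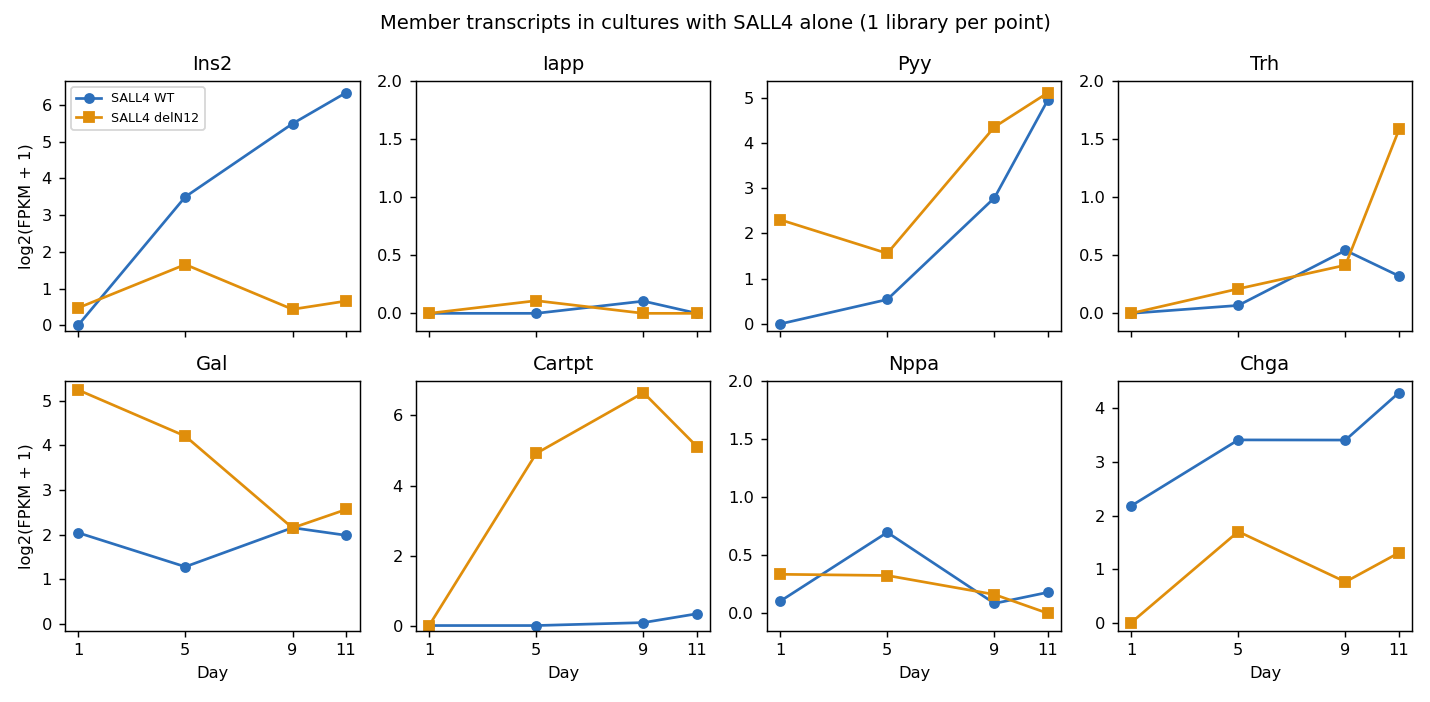
Level of each gene as log2(FPKM+1) on the vertical axis against day after infection with a single factor on the horizontal axis, 1 library per point, SALL4 WT in blue and SALL4 delN12 in orange. Chga lies higher in SALL4 WT on all 4 days and Ins2 from day 5 on, Cartpt lies above 29 FPKM in delN12 on days 5, 9 and 11 and below 0.3 FPKM in SALL4 WT, and Iapp and Nppa stay below 1 FPKM in both.

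Cartpt was the counterpart. It was listed at 0 on days 1 and 5 and stood at 0.0601 and 0.263 FPKM on days 9 and 11 in WT cells, while in delN12 cells it was listed at 0 on day 1 and stood at 29.2, 99.5 and 33.5 FPKM on days 5, 9 and 11. Differences were 4.92, 6.57 and 4.77 on those 3 days. These 3 delN12 libraries were the only ones of the 17 time-course libraries in which Cartpt reached 1 FPKM. Markers of primitive endoderm-like cells moved with it, 5 of 7 higher by at least 1 in delN12 on day 9 (median difference 2.42) and 6 of 7 on day 11 (3.27), as did markers of placenta-like cells, 3 of 6 on day 9 and 4 of 6 on day 11 (1.29 and 1.47), and their part in the Cartpt level was not tested.

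Gal was high early in delN12 cells, at 36.8 FPKM on day 1 and 17.5 on day 5 against 3.13 and 1.43 in WT cells, and the levels were close on day 9 (3.44 and 3.46) and day 11 (4.92 and 2.97). Pyy was at 3.94, 1.95, 19.4 and 33.6 FPKM in delN12 cells on days 1, 5, 9 and 11 and at 0, 0.455, 5.90 and 30.1 FPKM in WT cells. The log2 differences were 3.20, 2.92, -0.01 and 0.58 for Gal and 2.30, 1.02, 1.57 and 0.15 for Pyy, so the levels of both genes were closer on day 11 than on day 1. Trh stayed at or below 2.00 FPKM, Iapp at or below 0.0783 and Nppa at or below 0.622 in all 8 SALL4 libraries.

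On day 1, 2 genes were higher (Pyy, Gal) and 1 lower (Chga) in delN12, against 4.18% and 5.63% of 12794 genes. On day 5, 3 were higher (Pyy, Gal, Cartpt) and 2 lower (Ins2, Chga), against 4.67% and 5.19% of 13369, and on day 9, 2 were higher (Pyy, Cartpt) and 2 lower (Ins2, Chga), against 6.09% and 5.75% of 13483. On day 11, 2 were higher (Cartpt, Trh) and 2 lower (Ins2, Chga), against 6.55% and 6.58% of 13946. The median over the 8 genes was 0.12, 0.13, -0.06 and 0.08 against -0.03, -0.01, 0.03 and 0.01 over all genes. Cartpt and Ins2 lay far apart on either side of it on days 5, 9 and 11, but not on day 1. With a pseudocount of 0.1 the day 1 count was 4 higher, and the share of all genes at that pseudocount is not given here.

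Levels over the 17 libraries of the time courses placed the genes apart. Gal was above 0 in all 17 and reached 10 FPKM in 4, Ins2 reached 10 FPKM in 12, Pyy in 5, and Iapp, Trh, Cartpt and Chga in 3 each, while Nppa never did. As a description over these 17 libraries, which share time courses, Iapp tracked Ins2 most closely within the group (Pearson r of log2(FPKM+1) 0.760), and Ins2 and Cartpt ran most apart (-0.581). Among 12350 genes with at least 5 FPKM in 1 library, the 3 most like Iapp were Aqp9 (0.968), an aquaporin, Crygn (0.955), a crystallin, and Elmod1 (0.949).

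The genes most like Ins2 were Dcpp2 (0.949), Dcpp3 (0.949) and the homeobox gene Dlx3 (0.945). Trh ran with Gbx2 (0.979), Vrtn (0.974) and Lrrc4b (0.967), of which Gbx2 encodes a homeobox factor found in pluripotent cells, and Cartpt with the pregnancy-specific glycoprotein genes Psg23 (0.988) and Psg21 (0.988) and with Pnoc (0.970), the precursor of nociceptin. Likeness was lower for Pyy (C2 0.897, Ildr2 0.889, Clu 0.870), Chga (Ahr 0.858, Adgrf4 0.853, Cxadr 0.853), Gal (Krt79 0.786, Abr 0.778, Fgf15 0.777) and Nppa (Mir5119 0.721, Gm40974 0.718, Ganab 0.692). Cartpt was listed at 0 in 12 of the 17 libraries and reached 1 FPKM in 3, so its high r values rest on few libraries. Nppa reached 1 FPKM in 1 library, so the genes listed for it are uncertain.

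The machinery that turns such precursors into peptides was present in part. Of 8 processing genes, 6 reached 1 FPKM and 5 reached 10 FPKM in a time-course library. Cpe, the carboxypeptidase that trims cut peptides, stood highest at 342 FPKM and Pam, the amidating enzyme, at 99.8 FPKM, both in SALL4 WT at day 11. Furin, a convertase of the constitutive pathway, stood highest at 59.7 FPKM. The convertases of endocrine granules were near the bottom of the time-course table, Pcsk1 at most at 0.819 FPKM and Pcsk2 at most at 0.137. With BMP4 at JGES day 7, 3 of the 8 were higher and 1 was lower by at least 1 (median difference 0.40), where 10.3% and 13.8% of all genes were.

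Other islet genes were sparse in the time courses. Among 5 further islet hormone genes, 4 reached 1 FPKM and 0 reached 10: Ppy and Ins1 as above, Sst at 2.79 and Ghrl at 1.29, while Gcg, the glucagon gene, stayed at or below 0.317 there and stood at 1.5 in JGE cells without BMP4, the highest factor-set library. Of 12 islet transcription factor and beta cell genes, 5 reached 1 FPKM in a time-course library. Mafa, Neurog3 and Nkx6-1, which act in beta cell development and function, stood at most at 3.21, 3.14 and 1.53 FPKM in these 17 libraries, Pdx1 stood at most at 0.592 and Slc30a8, the zinc transporter of insulin granules, was listed at 0 throughout. The median BMP4 difference of the 12 at JGES day 7 was -0.00.

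Of 4 further granin genes, 2 reached 1 FPKM in the time courses, and Vgf stood highest at 12.3 FPKM in JGES cells with BMP4 on day 7. Of 24 other peptide genes, 19 in the same 17 libraries reached 1 FPKM and 5 reached 10: Edn1 (endothelin 1) at 88.1, Penk (proenkephalin) at 78.2, Cck (cholecystokinin) at 73.6, Adm (adrenomedullin) at 44.7 and Avp (vasopressin) at 12.1. At JGES day 7, 7 of these 24 were higher and 1 was lower with BMP4, with a median of 0.26, beside the same 10.3% and 13.8% of all genes. Of 16 receptor genes for the 8 peptides, 7 in these libraries reached 1 FPKM and 4 reached 10, namely Igf1r (28.5), Ramp2 (25.8), Ramp3 (19.6) and Npr1 (15.0), the receptor for the Nppa peptide. Trhr, the receptor for the Trh peptide, was listed at 0 in them, and Calcr, which forms the amylin receptor with the Ramp proteins, stayed at or below 0.0291 FPKM.

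Single-cell counts gave the level of each transcript by annotated cell type. The deposited annotation put the 11335 cells with BMP4 into the intermediate state (7125), primitive endoderm-like cells (PrECLCs, 2372), endothelial cells (1453) and placenta-like cells (385), and the 8685 cells without BMP4 into the intermediate state (6211), pluripotent cells (1825), endothelial cells (507) and PrECLCs (142). The 2 samples summed to 269277477 and 123159447 unique molecular identifiers (UMIs), and 2 cell barcodes occurred in both. The names held against their markers: in the BMP4 sample the PrECLC markers summed to 1383 CPM (UMIs of a gene scaled to the UMI total of the cells) in PrECLCs against 46.9 to 101 in its other types, and fibroblast markers to 1344 CPM in intermediate cells against 117 to 142 in its other types. Fibroblast markers summed to 215 CPM in the intermediate cells without BMP4, so cells that share this name differed between the samples.

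In intermediate cells Ins2 made up 10863 CPM with BMP4 (exact Poisson 95% interval 10847 to 10879) and 175 CPM without (172 to 177), a ratio of 62.2 (61.2 to 63.3). Iapp stood at 1700 CPM (1693 to 1706) against 5.65 (5.15 to 6.19), a ratio of 300.8 (275 to 330). These intervals and all that follow cover counting error only. Both islet genes were higher in intermediate cells than in the other types of the BMP4 sample, by 8.99 to 15.7-fold for Ins2, where the other types held 1208, 692 and 1026 CPM, and by 9.60 to 38.4-fold for Iapp, where they held 177, 46.7 and 44.3 CPM.

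**Figure D3:**
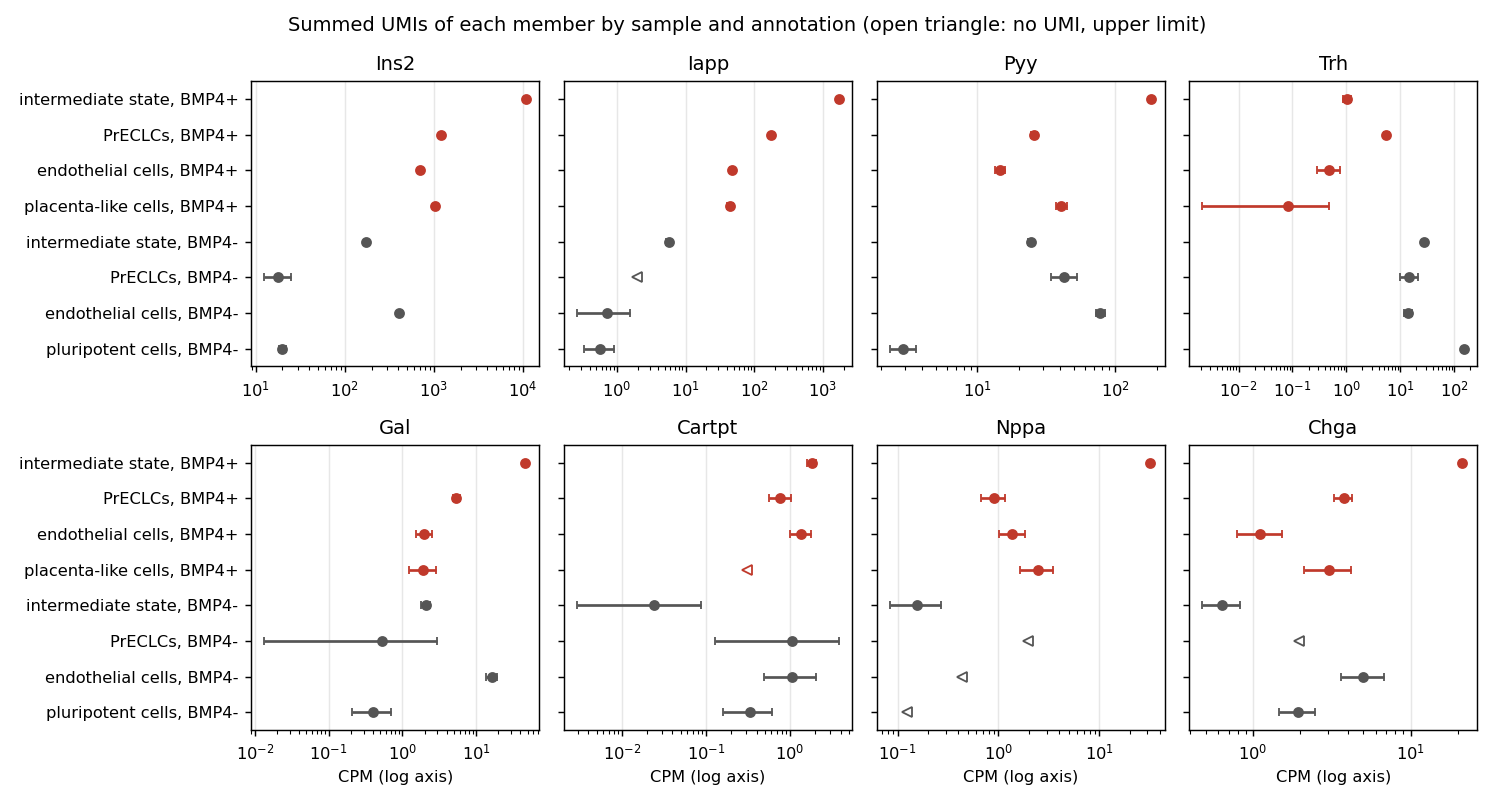
Level of each gene in CPM on a logarithmic axis for each annotated cell type in the sample with BMP4 and the sample without, with exact Poisson 95% intervals. An open triangle marks the upper limit where no UMI was counted; Ins2, Iapp, Pyy, Gal, Nppa and Chga are highest in intermediate cells with BMP4, and Trh is highest in pluripotent cells without BMP4.

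Pyy stood at 181 CPM (179 to 184) in intermediate cells with BMP4 and at 24.4 CPM without, a ratio of 7.43 (7.11 to 7.78). The ratios of Gal (46.7 and 2.07 CPM) and Chga (21.2 and 0.637 CPM) were 22.6 (19.4 to 26.4) and 33.3 (25.4 to 44.5). Nppa stood at 32.1 and 0.156 CPM, a ratio of 206 (120 to 386), although it stayed near the bottom of the bulk table. All 4 genes were again higher in intermediate cells than in every other type of the BMP4 sample, by 4.46-fold at the least (Pyy against placenta-like cells) and 35.9-fold at the most (Nppa against PrECLCs).

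Trh differed in place as well as in direction. Pluripotent cells without BMP4 held 151 CPM (146 to 155) and 60.3% of them had a UMI, 5.55-fold, 10.2-fold and 10.8-fold more than the intermediate cells (27.2 CPM), PrECLCs (14.8 CPM) and endothelial cells (14.0 CPM) of the same sample. In the BMP4 sample the highest type was the PrECLCs with 5.50 CPM, and intermediate cells held 1.03 CPM, which was 26.4-fold lower (22.5 to 31.1) than without BMP4. The pluripotent cells, 21.0% of the sample without BMP4, have no counterpart in the BMP4 annotation, so for them no comparison between samples can be made.

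The values in endothelial cells lay in the direction of the intermediate cells for some of the genes and not for others, and are given without reading them as expression, since free RNA can add to them in a sample with 1065 CPM of Iapp over all cells. With BMP4, Iapp stood higher (46.7 against 0.713 CPM) and Trh lower (0.487 against 14.0 CPM), and Nppa stood at 1.37 CPM against no UMI. In the other direction, they held with BMP4 less Pyy (14.7 against 77.9 CPM, 5.32-fold lower), less Gal (1.98 against 16.4 CPM, 8.30-fold lower) and less Chga (1.12 against 4.99 CPM, 4.47-fold lower) than without, while Ins2 was 1.69-fold higher (692 against 409 CPM). Few cells carried the level without BMP4, where 6 of 507 endothelial cells held 80.9% of the Ins2 UMIs and the median cell had 0. The difference between the cell types could not be tested with 1 sample per condition. Cartpt was scarce everywhere: 291 UMIs in 10 of 7125 intermediate cells with BMP4 (1.81 CPM) and 2 UMIs in 6211 without, a ratio of 75.2 with an interval of 20.6 to 624.

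Between the intermediate cells of the samples, 7 of the 8 genes were higher by at least 1 on the log2(CPM+1) scale with BMP4 and 1 (Trh) was lower, where 23.6% and 5.46% of 13207 genes were higher and lower by as much and the median over all genes was 0.41. The differences were 8.00 for Iapp, which ranked 3 among all 13207, 5.95 for Ins2, 4.84 for Nppa, 3.96 for Gal, 3.76 for Chga, 2.84 for Pyy, 1.46 for Cartpt and -3.79 for Trh. Of the 7, Ins2, Iapp, Pyy, Gal and Chga were also higher by at least 1 in the bulk JGES libraries of day 7. The bulk values of Nppa (listed at 0, and 1.22 FPKM) and Cartpt were too low to compare. The bulk and single-cell libraries are separate, but the genes were chosen with these data known, so nothing is read from this match. Intermediate cells were deeper with BMP4, with a median of 19594 UMIs against 11892.

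Ins2 UMIs reached nearly all cells of the BMP4 sample, and Iapp UMIs 48.4% of them. An Ins2 UMI was found in 98.5% of intermediate cells and still in 96.3% of endothelial cells, the type with the smallest share, and an Iapp UMI in 52.6% and 38.1%. Without BMP4 the intermediate shares were 30.1% and 1.09%. After thinning each cell to 4000 UMIs, the Ins2 shares with BMP4 were 87.5% in intermediate cells and 59.4%, 59.6% and 62.6% in PrECLCs, endothelial and placenta-like cells, and the Iapp shares were 28.4% and 12.1%, 10.0% and 11.2%. Free RNA from broken cells can give such UMIs, and so the shares in the other 3 types are not read as expression. Per 100 Ins2 UMIs there were 15.7 Iapp UMIs in intermediate cells, 14.7 in PrECLCs, 6.75 in endothelial and 4.32 in placenta-like cells, so the ratio was not the same in every type.

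Within the intermediate state with BMP4 the transcripts were unevenly spread. The median cell had 2871 CPM of Ins2 and 26.5 CPM of Iapp and none of the other 6 genes, while the highest cell had 241688 CPM of Ins2, 118001 of Iapp, 47150 of Pyy, 12858 of Nppa, 12057 of Cartpt, 11941 of Gal and 9123 of Chga. The 72 cells (1%) with the most UMIs of a gene held 12.8% of the Ins2 UMIs, 37.5% of Iapp, 58.2% of Gal, 69.6% of Chga, 70.3% of Pyy, 79.9% of Nppa and all of Cartpt. For Gapdh, a metabolic enzyme gene used throughout the body, the same measure gave 4.83%. Most UMIs of Gal, Chga, Pyy and Nppa, with a UMI in 891, 515, 1031 and 461 cells, thus came from few cells, as the plot of cumulative shares shows. For Cartpt, with UMIs in 10 cells, and Trh, with UMIs in 75, the measure is near its limit and says nothing of spread.

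**Figure D4:**
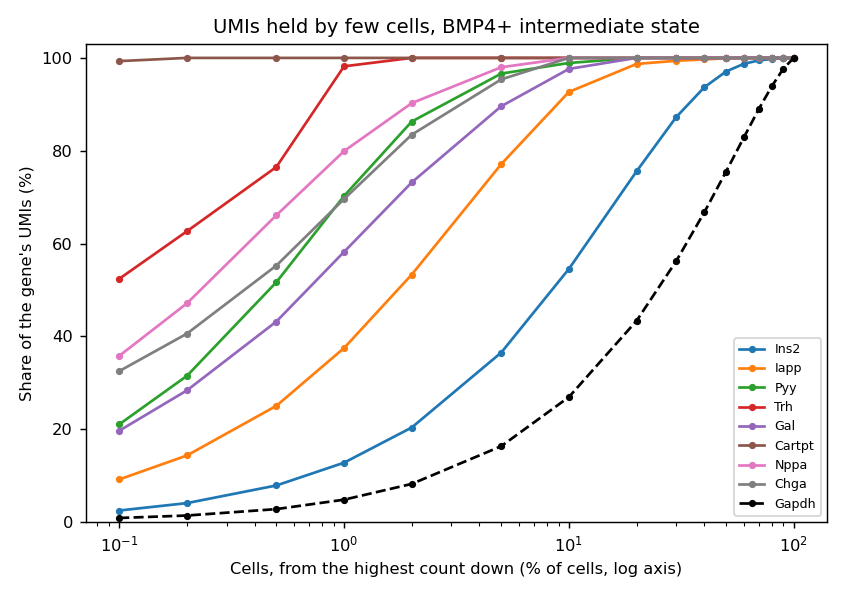
Share of each gene's UMIs (vertical axis, percent) held by the given percent of intermediate cells of the BMP4 sample with the most UMIs of that gene (horizontal axis, logarithmic), with Gapdh dashed for comparison. The top 1% of cells holds 12.8% of Ins2 and 37.5% of Iapp UMIs and 58.2% to 79.9% of Gal, Chga, Pyy and Nppa UMIs, while the curves of Trh and Cartpt are set by their few cells with a UMI.

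A cell with at least 1000 CPM of a gene, or 10000 CPM for Ins2, was counted as strong for it. Of 7125 intermediate cells with BMP4, 2099 (29.5%) were strong for Ins2, 1004 for Iapp, 179 for Pyy, 66 for Gal, 37 for Nppa, 24 for Chga, 2 for Cartpt and 0 for Trh. No gene was strong in 4573 cells (64.2%), 1 gene in 1769, 2 genes in 709, 3 genes in 72 and 4 genes in 2. Of the Iapp-strong cells 654 were also Ins2-strong, which is 65.1% of them and 31.2% of the Ins2-strong cells.

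The rarer genes overlapped Ins2 to different extents. Ins2 was strong in 83.3% of Chga-strong cells (20 of 24), 77.3% of Gal-strong (51 of 66), 38.5% of Pyy-strong cells (69 of 179) and in 27 of the 37 Nppa-strong cells. For comparison, 29.5% of all these intermediate cells were Ins2-strong. Of the 24 Chga-strong cells 17 (70.8%) were strong for Iapp, against 14.1% of all cells. Pyy shared 0 strong cells with Nppa and 0 with Chga, but only 2.51% of all cells were Pyy-strong, so these zeros are not read as a difference. Strong cells were somewhat deeper, with a median of 20453 UMIs against 19210 for Ins2 and 22878 against 19178 for Iapp, and their mitochondrial share was 3.33% against 3.10% and 2.96% against 3.21%. Droplets that held 2 cells were not searched for, and their part in the overlaps was not tested.

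Cells strong for Ins2 or Iapp (2449, or 34.4%) were set beside the other 4676 intermediate cells, as a description, since the cells were grouped by their own counts. Ins1 stood at 66.4 and 7.65 CPM and Ppy at 106 and 33.7 CPM in the 2 groups. Among processing genes, Pam stood at 115 and 75.1, Qpct, which closes the N-terminal end of peptides such as TRH, at 98.8 and 39.96, Pcsk1n, an inhibitor of Pcsk1, at 47.6 and 28.8, and Cpe, lower in the strong cells, at 32.8 and 72.9 CPM. The granule convertases stayed near 0, Pcsk1 at 1.48 and 0.544 and Pcsk2 at 0.396 and 0.156 CPM.

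Avp and Crh, peptide genes of the hypothalamus, stood at 43.4 and 13.6 and at 20.8 and 6.17 CPM, higher in the strong cells. The 6 neuroendocrine markers summed to 23.5 CPM in the strong cells and 32.0 in the others, most of it Stmn2 (14.7 and 25.6 CPM), and their median was 1.65 and 1.43 CPM. Syt1 stood at 5.12 and 3.26 CPM, and Insm1 at 0.0172 and 0.0292. The 6 fibroblast markers summed to 1542 and 1233 CPM, with Postn, Col1a2 and Pcolce higher in the strong cells (402, 413 and 434 against 204.5, 284 and 318 CPM) and Col1a1, Lrp1 and Thy1 lower (211.5, 80.3 and 1.53 against 319.8, 92.1 and 14.3 CPM). Of the 6 cardiomyocyte markers, 3 reached 1 CPM in intermediate cells with BMP4, and their sum was 32.8 CPM there and 42.8 without BMP4, although Nppa differed by 206-fold.

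The peak lists describe chromatin in MEFs and in SALL4-infected cells, and none was made from JGES cells. Within 2 kb of the start site Ins2, Iapp, Pyy and Trh had no peak in any of 13 lists. Cartpt and Chga each had an ATAC peak in 7 of the 9 ATAC lists, all but SALL4 WT and delN12 at day 1, Gal had one in 4 (MEFs and SALL4 WT at days 1, 9 and 11) and Nppa in MEFs, where 58.5% to 66.1% of 17493 protein-coding genes had such a peak in each ATAC list. No SALL4 or H3K27ac peak lay within 2 kb of any of the 8 start sites, where 52.2% and 39.0% of all these genes had a SALL4 WT and a SALL4 delN12 peak and 48.4% and 57.2% had an H3K27ac peak. The Cartpt promoter thus had ATAC peaks in SALL4 WT cells from day 5 on too, in which its transcript stayed below 0.3 FPKM.

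**Figure D5:**
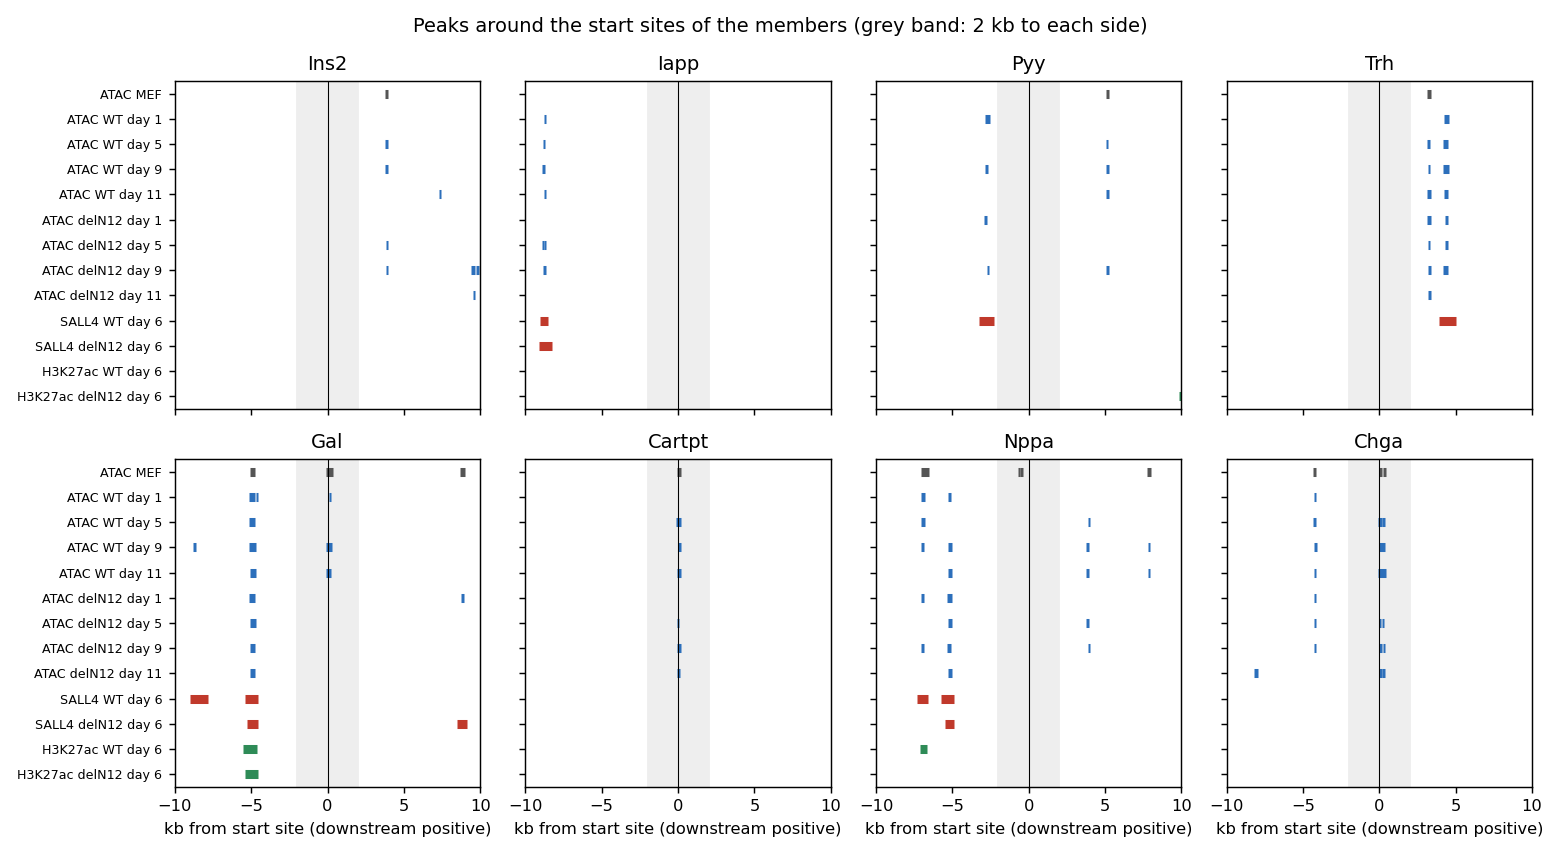
Peaks within 10 kb of each start site (horizontal axis, distance in kilobases) in each of the 13 lists (rows), with ATAC peaks of MEFs in grey and of SALL4-infected cells in blue, SALL4 CUT&Tag in red and H3K27ac in green; the grey band is 2 kb to each side. Peaks at the start site are seen for Gal, Cartpt, Nppa and Chga only, and SALL4 peaks lie outside the band.

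Farther out, SALL4 peaks lay within 10 kb of 5 of the genes, each with the score of the peak caller. The share of all genes with a SALL4 peak within 10 kb was not computed, so nothing is read from this count. The site upstream of Iapp, inside the neighbouring gene Slco1a5, was a peak in SALL4 delN12 cells (chr6:142289283-142290166, score 233) and a lower one in SALL4 WT cells (51.4), its centre -8.70 kb from the start site in delN12. ATAC peaks were listed there in 6 of 8 SALL4 lists, not in MEFs. Iapp stayed at or below 0.0783 FPKM in all 8 SALL4 libraries, so the peak and the transcript did not occur together there.

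The site downstream of Trh, 4.47 kb from its start site between annotated genes, was a peak in SALL4 WT cells (chr6:92239630-92240730, score 276) and not in delN12 cells, and ATAC peaks lay there in 7 of 8 SALL4 lists. A SALL4 WT peak also lay at -2.77 kb from Pyy (chr11:102110116-102111096, score 205), with none in delN12 cells. Near Gal, a site between annotated genes (chr19:3419114-3419942 in SALL4 WT) was a peak in all 13 lists, with SALL4 scores of 137 in WT and 62.5 in delN12. Near Nppa, SALL4 peaks at -5.31 kb scored 163 in WT and 54.0 in delN12. Scores depend on the depth of each list, and with 1 list per condition their differences carry no replicate error.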

How the data were processed

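Bulk RNA-seq values are FPKM as deposited; per the labels the authors trimmed with Trim Galore 0.6.4, aligned to mm10 with HISAT2 2.2.1 and quantified with StringTie 2.2.1. FPKM hold no read totals, so depth is unknown, and only relative depth was read from the low values. Single-cell values are deposited UMI counts per cell (STARsolo with Gencode vM21, filtered with Scanpy), of which 10749 per-cell columns that match no sample here were not used. In the deposited peak lists the authors' score is the MACS 1.4.2 score, after Bowtie2 2.4.5 and SAMtools 1.16.1, with CUT&Tag replicates merged before calling.

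The 8 genes, the marker and pathway lists and the comparisons were chosen with earlier results of these data known. Differences are of log2(FPKM+1), with genes at 1 FPKM or more in either library as background and a difference of 1 counted. Single-cell levels are summed UMIs of a group over its UMI total (CPM), with exact Poisson or Clopper-Pearson 95% intervals. No doublet caller was run, and no cell was filtered out of the 20020 annotated ones. JGES day 7 libraries occur in both tables, and the time-course columns were used. Besides the 8 genes, those named were, by rule, the 3 most correlated with each, up to 4 of each pathway list by highest FPKM, and the neighbours Nppb, Ppy and Igf2; other list genes (Ins1, Sst, Ghrl, Gcg, Avp, Crh, Qpct, Pcsk1, Pcsk2, Pcsk1n, Mafa, Neurog3, Nkx6-1, Pdx1, Slc30a8, Trhr, Calcr) were named after their values were seen. The label ParE was read as PrECLCs. Python 3.11.15, numpy 2.4.6, scipy 1.17.1, pandas 2.3.3, matplotlib 3.10.9, pysam 0.24.0 and Biopython 1.88 were used. The count of genes past a difference of 1, the scaling and the thinning draw were tested on simulated data, and the other steps were not. Alternatives were another pseudocount (0.1), scaling, filter, thinning to 4000 UMIs, leaving out the deepest 6% of cells, weighting cells equally, a 10 kb window, a score of at least 100 and rank correlation. Part of the islet list is not reported here.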

Additional observations from a re-analysis of the deposited data

Results flagged for a closer look

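Gal and Chga turned direction within the JGES time course. The BMP4 minus no-BMP4 difference of Gal on the log2(FPKM+1) scale was -2.81 on day 1 and 2.64 on day 7, values that lie 5.45 apart, and that of Chga was -1.60 on day 1 and 4.48 on day 7, which lie 6.09 apart. Each value rests on 1 library per condition and day, and the difference was not tested.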

How the results depend on the processing

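No bulk difference of at least 1 in any of the 8 genes turned direction with the other pseudocount or with scaling. Turns of smaller differences were not looked for. The single-cell alternatives were run on levels and shares within a group, so they could not show a turn between the samples. Scaling by median ratios left all 22 bulk counts of genes past 1, and all 88 differences of single genes, on the same side of that size, and the copies of the JGES day 7 libraries gave the same calls. With a pseudocount of 0.1, which weighs low values more, 2 genes were lower at JGES day 5 and 6 were higher in JGE. In JGEO 2 were higher and 2 lower, in JGESO 2 were lower, and in delN12 at day 1, 4 were higher. Outside JGES day 7, 15 shares of all genes moved at that pseudocount too. The shares given above are therefore no background for these counts. Thinned to 4000 UMIs, the shares of BMP4 intermediate cells with a UMI were 87.5% for Ins2, 28.4% for Iapp, 6.85% for Pyy, 5.64% for Gal, 2.98% for Chga, 2.78% for Nppa and 0.253% for Trh, and 32.9% of pluripotent cells had a Trh UMI. Without the deepest 6% of cells, the CPM was 1562 for Iapp, 172 for Pyy, 29.0 for Nppa, 16.8 for Chga, 2.07 for Cartpt and 159.6 for Trh in pluripotent cells. As a mean over cells it was 10961 for Ins2, 1486 for Iapp, 165 for Pyy, 44.9 for Gal, 24.7 for Nppa, 18.3 for Chga, 2.56 for Cartpt and 164 for Trh. The 19 pairs of a gene and a peak list with a peak within 2 kb of the start site became 75 within 10 kb. They became 11 at a score of at least 100. The shares over all genes were not computed for that window or that score. Of the 24 most similar genes 5 were also so by Spearman rho. No paired analysis was possible because no condition had replicates whose numbers could be paired; pairing libraries by day or factor set was not run, as the genes were chosen with those differences known. The lowest FPKM of the JGES libraries rest on few fragments, and the number is unknown, so values under about 1 FPKM are uncertain for every gene there, such as Pyy on day 1 without BMP4, Trh on days 1 and 3 and Gal on day 3 with BMP4, and the folds that rest on them.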
